A study of Mus musculus with 8 samples.

Results

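Whether loss of NIK changes the size of the transcriptional response to interleukin 4 (IL-4) was examined gene by gene in bone-marrow-derived macrophages. The macrophages came from 12-week-old female mice, either wild type (WT) or labelled NIK KO, a knockout of NF-κB-inducing kinase, with 2 mice of each genotype. Marrow was cultured for 7 days in 30% medium conditioned by L929 cells, a source of the growth factor M-CSF, and replated in 5%. Macrophages of every animal received either PBS or IL-4 (20 ng/mL) over 6 hours, which gave 8 RNA libraries in 4 groups of 2, both treatments resting on the same 4 mice. The labels name neither the deleted part of the gene nor the strain, and with 2 mice a side a difference between these mice cannot be told apart from one of genotype. The genes were those present in both of the authors' deposited tables, 1 per treatment, with a base mean (the mean normalized count over the libraries of a table) of 100 or more with IL-4. This left 9508 of the 14485 genes listed in either table, and of the 13384 listed in both.

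The response of a genotype is the log2 ratio of its mean normalized count with IL-4 to that with PBS. The difference is the response of the libraries labelled NIK KO minus that of WT. It equals the deposited log2 fold change of the genotypes with IL-4 minus the one with PBS, and its standard error (± below) comes from the deposited errors of both. Below, a larger response in the libraries labelled NIK KO means a positive difference. For a gene lowered by IL-4 that is a smaller drop. Genes were placed in 4 bins by the ratio of their base means, IL-4 over PBS: over 4 (110 genes), 2 to 4 (373), 0.5 to 2 (8945) and under 0.5 (80). The bins use the mean of both genotypes and the difference compares them, so the bin of a gene is no evidence on its difference. Of the 9508 genes 1.16% had a ratio over 4, 5.08% over 2 and 0.841% under 0.5. The tables hold 1 value per gene and comparison, so group means are given in place of values per library, the depth of each library is unknown, and the response itself carries no test. The tables were normalized separately, so a factor common to all genes may be part of every response and cancels in the difference.

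IL-4 binds a receptor of the chains IL-4Rα and common γ, whose JAK kinases phosphorylate STAT6, a transcription factor that enters the nucleus as a dimer. In macrophages STAT6 turns on the genes of alternative activation, such as Arg1, Mrc1 and Retnla, together with transcription factors that extend the programme and SOCS-family inhibitors that limit it, and it represses part of the inflammatory programme. NIK belongs to another pathway: it is stabilised when receptors of the TNF family recruit TRAF proteins, and it then drives processing of the NF-κB2 precursor to the subunit p52, which pairs with RelB.

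The gene of NIK, Map3k14 (ENSMUSG00000020941), stood at 425 mean normalized counts in WT and 902 in the libraries labelled NIK KO with PBS, and at 418 and 832 with IL-4. It is thus higher on the side labelled as the knockout, against that label, and its response was 0.985-fold in WT and 0.922-fold in the libraries labelled NIK KO (difference -0.09 ± 0.36). Reads outside a deleted part would still be counted, and the sources used here do not give the deleted part. By the authors' adjusted p, 5 of 13676 genes (0.0366%) were called between genotypes in the authors' deposited table with PBS and 17 of 14193 (0.12%) in that with IL-4. Map3k14 was among those called with IL-4 (log2 fold change 0.991, adjusted p = 0.00782 by the authors' Wald test). With PBS it was not called (1.09, adjusted p = 0.176 by the same test). Of the 3 called in both (Kpna2, Gm10184 and Gdf3), all 3 had the same sign in both, so the tables run in the same direction. If that direction were the reverse of the one named, every difference below would change its sign. The labelled cell type was checked on its markers: all 13 macrophage markers on the list were among the genes analysed, with Lyz2 between 318214 and 521159 and Csf1r between 44354 and 67641 mean normalized counts over the 4 groups.

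To describe promoters of the genes with the strongest responses, the 250 bases before the annotated start (RefSeq, GRCm38.p6) were searched for a motif. The motif was TTC, 4 bases of any kind and GAA, a form bound by STAT6 that reads the same on both strands. A promoter sequence was found for 76 of the 110 genes with a ratio over 4, and 12 of those (15.8%) held the motif. It was present in 6.76% of the 27025 genes with a promoter sequence and in 5.39% of those with a ratio of 0.5 to 2. The 3 genes of highest ratio that hold it are Retnla (chromosome 16, 48842359 to 48842608, plus strand), Pdcd1lg2 (chromosome 19, 29410669 to 29410918, plus strand) and Tmem26 (chromosome 10, 68723496 to 68723745, plus strand), shown 5′ to 3′ with the motif in capitals.
Retnla: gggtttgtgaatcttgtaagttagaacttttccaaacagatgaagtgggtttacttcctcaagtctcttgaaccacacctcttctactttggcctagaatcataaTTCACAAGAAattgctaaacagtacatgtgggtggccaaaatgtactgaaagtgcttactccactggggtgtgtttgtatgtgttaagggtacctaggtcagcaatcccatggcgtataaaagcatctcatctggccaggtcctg
Pdcd1lg2: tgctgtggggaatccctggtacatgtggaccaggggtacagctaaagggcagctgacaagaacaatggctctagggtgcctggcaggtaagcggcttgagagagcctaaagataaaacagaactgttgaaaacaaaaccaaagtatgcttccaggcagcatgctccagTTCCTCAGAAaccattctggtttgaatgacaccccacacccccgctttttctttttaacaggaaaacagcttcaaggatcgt
Tmem26: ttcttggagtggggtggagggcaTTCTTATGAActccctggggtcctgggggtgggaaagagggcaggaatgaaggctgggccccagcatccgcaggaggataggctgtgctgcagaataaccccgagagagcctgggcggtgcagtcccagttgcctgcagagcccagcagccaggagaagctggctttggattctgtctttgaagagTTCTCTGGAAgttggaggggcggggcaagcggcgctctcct
In Retnla the motif starts 145 bases before the annotated start and in Pdcd1lg2 82 bases before it, while Tmem26 holds 2 matches. A match is a sequence description and does not show binding.

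At the other end, the genes with a ratio under 0.5 were searched on both strands for GAAA, 2 bases of any kind and GAAA, the core of the interferon-stimulated response element, a search chosen after interferon-stimulated genes had been seen among them. Of the 66 with a promoter sequence 11 (16.7%) held it, against 3.46% of all 27025 genes and 3.38% of those with a ratio of 0.5 to 2. The 3 genes of lowest ratio with the motif are Ifit3b (chromosome 19, 34607707 to 34607956, plus strand), Pilra (chromosome 5, 137836279 to 137836528, minus strand) and Cxcl10 (chromosome 5, 92348890 to 92349139, minus strand), all in GRCm38.p6. They are printed 5′ to 3′ with the element in capitals, as GAAA around 2 bases or, in reverse complement, TTTC around 2 bases.
Ifit3b: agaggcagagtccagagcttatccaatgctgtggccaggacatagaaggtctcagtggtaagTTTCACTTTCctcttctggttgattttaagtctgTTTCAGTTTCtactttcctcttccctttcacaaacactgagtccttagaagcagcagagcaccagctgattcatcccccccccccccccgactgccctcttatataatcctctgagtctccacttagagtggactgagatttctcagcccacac
Pilra: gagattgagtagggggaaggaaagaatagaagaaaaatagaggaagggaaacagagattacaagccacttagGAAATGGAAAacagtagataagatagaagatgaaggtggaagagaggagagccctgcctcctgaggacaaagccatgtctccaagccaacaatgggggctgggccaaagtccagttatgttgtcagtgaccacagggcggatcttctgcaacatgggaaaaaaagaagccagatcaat
Cxcl10: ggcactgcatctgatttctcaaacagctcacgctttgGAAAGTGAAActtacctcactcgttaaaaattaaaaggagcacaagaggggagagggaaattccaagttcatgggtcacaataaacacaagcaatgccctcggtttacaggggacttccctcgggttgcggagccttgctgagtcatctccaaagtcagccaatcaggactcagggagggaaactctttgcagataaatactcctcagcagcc
Ifit3b and Cxcl10 are interferon-stimulated genes. Their levels are given with the lowered genes below.

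Responses in WT ran from -2.59 (Fpr2) to 9.21 (Retnla), and the medians of the 2 genotypes were close in every bin. Among the 110 genes with a ratio over 4 the median response was 2.91 in WT and 2.99 in the libraries labelled NIK KO. The median difference there was 0.05 (quartiles -0.23 and 0.31). With a ratio of 2 to 4 it was 0.08 (quartiles -0.11 and 0.25), with 0.5 to 2 it was 0.00 (-0.15 and 0.17), and under 0.5 it was -0.06 (-0.27 and 0.07). Expressed as a ratio of the folds, NIK KO over WT, these medians were 1.03 over 4, 1.05 in the bin 2 to 4 and 0.957 under 0.5. Over all 9508 genes the median difference was 0.00. Size factors set within each treatment hold the median fold change of the genotypes near 0 (-0.001 with PBS, 0.012 with IL-4). Neither this median nor the share over all genes given below can therefore show a shift common to all genes. None of the 9508 genes was called for a difference (z test on the 2 fold changes, Benjamini-Hochberg adjusted across all 13384 shared genes, adjusted p under 0.05; 0 called). This test takes the errors of the 2 tables as independent, although both come from the same 4 mice. With an assumed error correlation of 0.5, 9 of the 9508 genes were called, 8 of them in the bin 0.5 to 2 and 1 (Tpbpa) in the bin 2 to 4. With independent errors, over the whole of the 13384 genes the test called 2, or 0.0149%, both below the minimum of 100. At an unadjusted p under 0.05 stood 70 of the 9508 (0.736%), against 0.867% of the 13384: 51 (0.536%) had a larger and 19 (0.2%) a smaller response in the libraries labelled NIK KO. The test was a cautious one, since its z values had a standard deviation of 0.659 where independent errors of the deposited size would give 1.

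**Figure D1:**
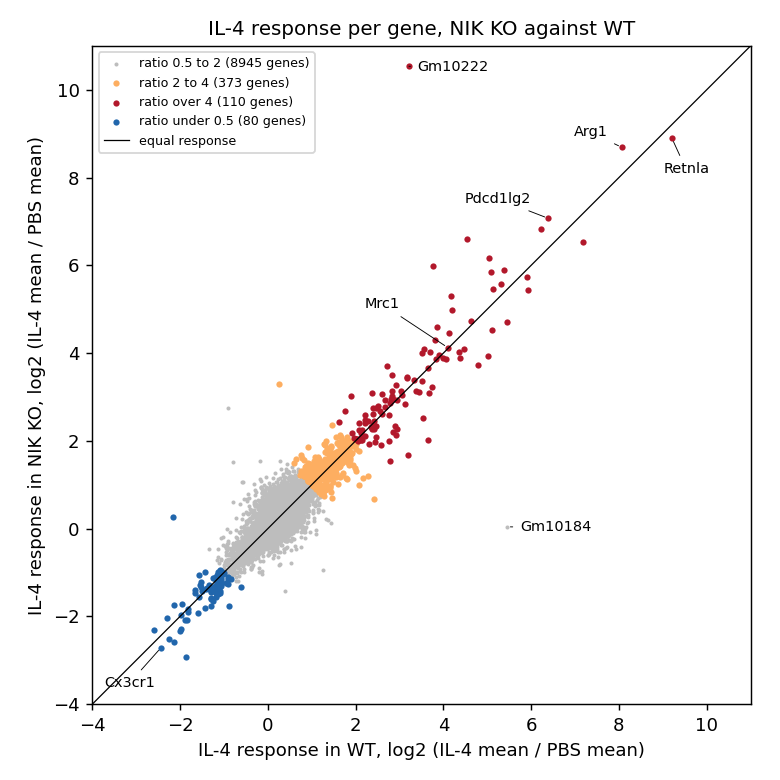
Each point is 1 of the 9508 genes, with its IL-4 response in WT (x axis) and in the libraries labelled NIK KO (y axis), both as log2 ratios of group means, coloured by the bin of the base mean ratio. Points follow the line of equal response from Cx3cr1 at the lower end to Retnla and Arg1 at the upper end, and the distant points Gm10184 and Gm10222 are each listed near 0 in 1 group.

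The share of genes with a positive difference, the larger log2 response in the libraries labelled NIK KO, was 50.7% over all genes (4816 of 9508). It was 56.4% over 4 (62 of 110; exact binomial interval 46.6 to 65.8%), 62.5% in the bin 2 to 4 (233 of 373; 57.3 to 67.4%), 50.2% between 0.5 and 2, and 40.0% under 0.5 (32 of 80; 29.2 to 51.6%). These intervals treat genes as independent, which they are not, and describe the count only. Under 0.5 a positive difference is a smaller drop, and 48 of the 80 genes had the deeper drop in the libraries labelled NIK KO. The share in the bin 2 to 4 depended on which genotype set the bins: it was 48.6% with bins by the WT ratio and 75.9% by the ratio of the libraries labelled NIK KO. A response scaled by genotype would give a slope of the difference on the mean response of both genotypes. That slope was 0.07 by least squares over the 9508 genes, equivalent to responses 1.07 times as large in the libraries labelled NIK KO on the log2 scale. By the Theil-Sen estimate over the 563 genes outside 0.5 to 2 it was 0.02 (1.02 times). The least squares fit includes Gm10222 (difference 7.32 ± 5.84) and Gm10184 (-5.40 ± 1.53), which cannot be read as responses (below). The sign of the slope follows the axis chosen: it was -0.08 on the WT response and 0.19 on the response of the libraries labelled NIK KO. Each of these axes shares its error with the difference. Summed over the 110 genes, mean normalized counts went from 34064 with PBS to 236734 with IL-4 in WT, 6.95 times, and from 34592 to 247414 in the libraries labelled NIK KO, 7.15 times.

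**Figure D2:**
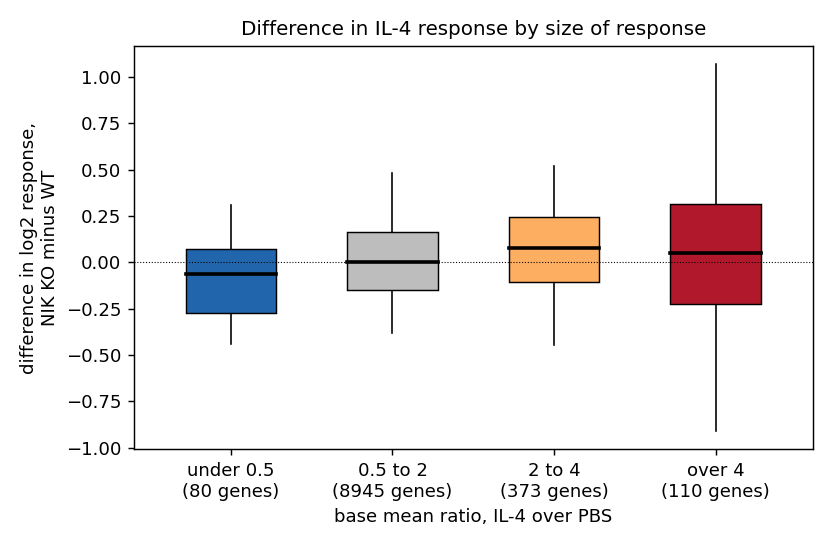
Difference in log2 IL-4 response, NIK KO minus WT, in each bin of the base mean ratio: boxes span the quartiles, thick lines mark the medians and thin lines run from the 5th to the 95th percentile of genes. The medians lie between -0.06 and 0.08, and the spread is widest over 4.

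Single genes were measured less well where IL-4 acted most. The median standard error of the difference was 0.63 over 4, against 0.38 in the bin 2 to 4 and 0.37 between 0.5 and 2. Of the 110 genes over 4, 31 had a base mean under 25 with PBS; genes reach this bin through their level with IL-4, so a low level with PBS is built into it. The 95% interval of the difference lay wholly within a 2-fold change in either direction for 27 of the 110, 196 of the 373, 5654 of the 8945 and 32 of the 80 genes. For the other genes the interval did not exclude a 2-fold difference between genotypes. Among the 45 genes over 4 with a base mean of 100 or more with PBS, 26 had such an interval, and their median difference was 0.07 (quartiles -0.04 and 0.26).

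The 2 highest ratios belonged to a secreted protein and an enzyme of alternative activation, Retnla (530) and Arg1 (320), followed by Gm8113 (109.7, with 57.0% of its sequence shared with other genes), Pdcd1lg2 (106) and Cdh1 (90.3). Retnla, a secreted resistin-like protein (ENSMUSG00000061100), stood at 2.34 mean normalized counts in WT and 2.67 in the libraries labelled NIK KO with PBS, and at 1385 and 1274 with IL-4. Both genotypes with IL-4 lie far above both with PBS, and the responses of 592-fold and 476-fold differed by -0.31 ± 2.56, with counts near 0 in both PBS groups. Arg1, which encodes arginase 1 (ENSMUSG00000019987), went from 30.5 to 8190 in WT, 268-fold, and from 17.3 to 7136 in the libraries labelled NIK KO, 413-fold (difference 0.62 ± 0.80). Chil3, a chitinase-like protein, had responses of 43.9-fold in WT and 26.2-fold in the libraries labelled NIK KO (-0.74 ± 0.62, 95% interval -1.97 to 0.48), and 44.8% of the 31-base stretches of its transcripts (words, below) also occur in other genes. Il4i1, a secreted amino acid oxidase, had the smallest unadjusted p among genes over 4 with a larger response in the libraries labelled NIK KO. Its levels were 112 and 41.4 with PBS and 3694 and 2999 with IL-4 in WT and the libraries labelled NIK KO, so the gap in response (33.1-fold and 72.4-fold, difference 1.13 ± 0.59, adjusted p = 1.00 by the z test with Benjamini-Hochberg adjustment) came with the lower level at rest.

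Fn1, which encodes fibronectin, was the 1 gene over 4 with an unadjusted p under 0.05. It stood at 37.7 in WT and 54.3 in the libraries labelled NIK KO with PBS, and at 345 and 173 with IL-4, a response of 9.14-fold against 3.19-fold (difference -1.52 ± 0.73, adjusted p = 1.00 by the z test with Benjamini-Hochberg adjustment). Fibronectin is also made by fibroblasts. Of 10 fibroblast markers 8 were in both tables, each under a base mean of 100, and Pdgfra and Thy1 were not among the genes in both tables. Their summed level was 124 in WT and 120 in the libraries labelled NIK KO with PBS, and 457 and 181 with IL-4, so their sum too was highest in WT with IL-4, and their part in the result was not tested. The gene next to it in p on that side was Mcf2l, with 11.5-fold in WT and 5.71-fold in the libraries labelled NIK KO (-1.01 ± 0.63). Gatm, an enzyme of creatine synthesis, had responses of 10.4-fold and 8.86-fold (-0.23 ± 0.31). Ptgs1, cyclooxygenase 1, went from 762 to 5252 in WT and from 768 to 5557 in the libraries labelled NIK KO (6.89-fold and 7.24-fold, difference 0.07 ± 0.38). Of the whole list of IL-4-induced enzymes and secreted proteins, 13 of 18 genes were among those analysed. Of these, 5 had the larger response in the libraries labelled NIK KO, against 50.7% of all genes. The median difference was -0.14, and 0 were called. That median is the value of Socs2 (-0.14 ± 1.08), a SOCS-family inhibitor on the list that is neither an enzyme nor secreted. Its mean normalized counts with PBS were 14.0 in WT and 18.4 in the libraries labelled NIK KO.

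**Figure D3:**
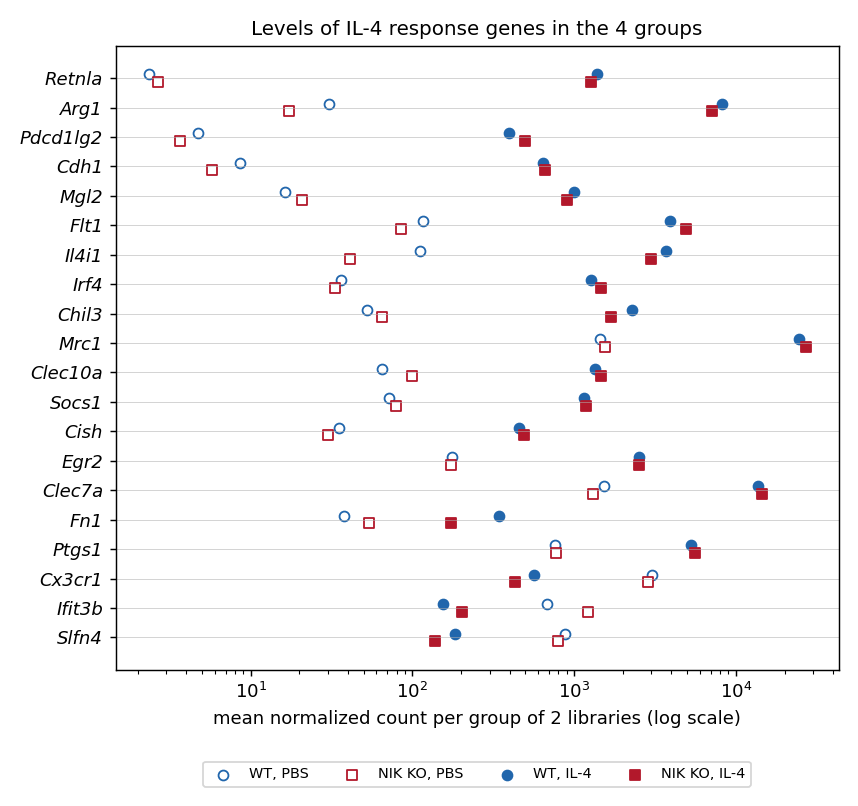
Mean normalized count of 20 IL-4 response genes in each of the 4 groups of 2 libraries, on a log axis, with open symbols for PBS and filled symbols for IL-4. With IL-4 the symbols of the 2 genotypes nearly coincide for most genes, and Fn1 (345 in WT, 173 in NIK KO) shows the widest gap.

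Gm10222 stood at 81.9 in WT and near 0 (0.196) in the libraries labelled NIK KO with PBS and at 761 and 291 with IL-4. All of its words (100%) occur in other genes, so its difference cannot be read as a response. Among the most abundant genes over 4, Prkcd, a protein kinase C, had responses of 4.02-fold and 4.15-fold (0.04 ± 0.30) and Atp6v0a1, a subunit of the proton pump of lysosomes, of 4.45-fold and 4.75-fold (0.09 ± 0.31). Clcn5, an endosomal chloride transporter, had 3.09-fold in WT and 5.43-fold in the libraries labelled NIK KO (0.81 ± 0.44).

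Receptors and surface proteins made up the largest named group over 4, with 11 members. Mrc1, the mannose receptor CD206 (ENSMUSG00000026712), was the best measured of the hallmark genes. It went from 1442 to 24715 in WT and from 1544 to 26999 in the libraries labelled NIK KO, which is 17.1-fold and 17.5-fold. The difference of 0.03 ± 0.33 has a 95% interval of -0.61 to 0.67, or 0.656 to 1.59 as a ratio of the folds, so a response halved or doubled lies outside it. Clec7a, the β-glucan receptor dectin 1, had responses of 8.99-fold and 10.98-fold (0.29 ± 0.37), and for Itgax, the integrin CD11c, they were 6.09-fold and 6.15-fold (0.01 ± 0.48, a sign that turns when the fold changes are centred on their medians). The lectins Mgl2 and Clec10a had smaller responses in the libraries labelled NIK KO by -0.49 ± 0.91 and -0.50 ± 0.53. The adhesion protein Cdh1, the PD-1 ligand gene Pdcd1lg2 and the VEGF receptor gene Flt1 had larger ones, by 0.61 ± 1.37, 0.69 ± 1.73 and 0.77 ± 0.50. No member was called, and 11 of 17 had the larger response in the libraries labelled NIK KO, with a median difference of 0.05.

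Among transcription factors of alternative activation the differences went either way. Irf4, a factor needed for alternative activation, went from 36.3 to 1281 in WT and from 33.4 to 1461 in the libraries labelled NIK KO, and Egr2 from 176 to 2512 and from 173 to 2515. The responses of Egr2, 14.3-fold and 14.6-fold, differed by 0.03 ± 0.42 (interval -0.79 to 0.85), and those of Irf4 by 0.31 ± 0.72. Batf3 was at -0.33 ± 0.78, Bhlhe40 at 0.28 ± 0.33, and Ppargc1b, a coactivator that promotes mitochondrial biogenesis, at -0.56 ± 0.73 with 7.46-fold in WT and 5.06-fold in the libraries labelled NIK KO. In the bin 2 to 4, Klf4 (2.91-fold and 2.94-fold) differed by 0.02 ± 0.38, Pparg by -0.16 ± 0.43 and Myc by 0.25 ± 0.52. Of the 15 factors analysed, 8 had the larger response in the libraries labelled NIK KO, the median difference was 0.02 and 0 were called.

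**Figure D4:**
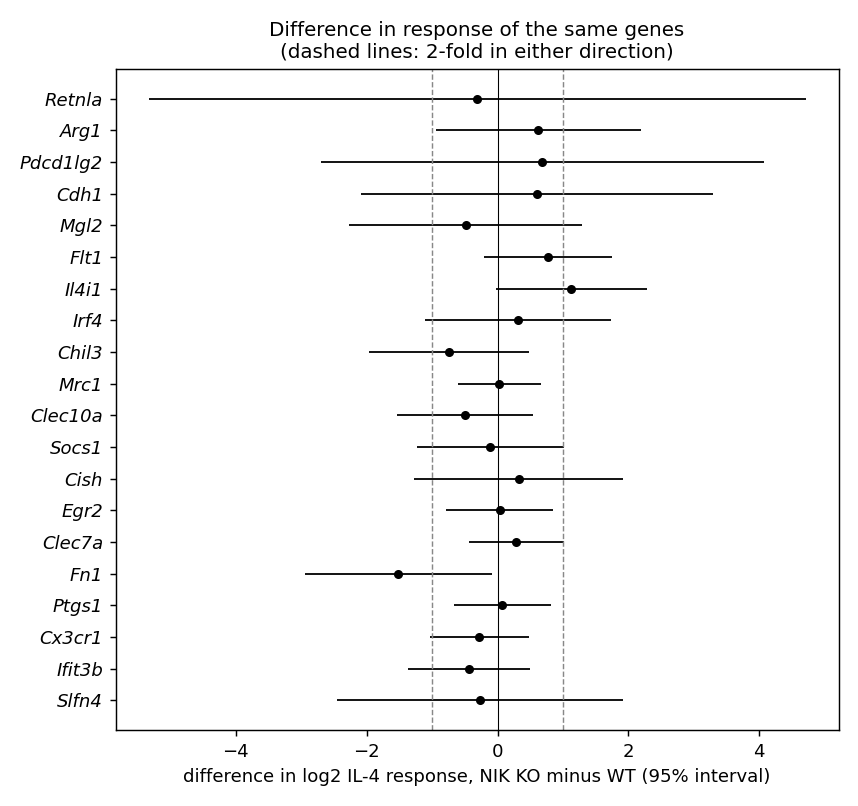
Difference in log2 IL-4 response, NIK KO minus WT, of the same 20 genes with 95% intervals from the deposited standard errors, dashed lines marking a 2-fold change in either direction. Intervals of Mrc1, Egr2 and Ptgs1 lie within the dashed lines, those of genes near 0 with PBS such as Retnla reach far beyond, and that of Fn1 lies below 0.

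Il4ra, Jak1 and Stat6, the ligand-binding chain, a kinase and the factor itself, lay in the bin 0.5 to 2, with base mean ratios of 1.22, 1.47 and 1.13. Il4ra, the IL-4Rα chain, stood at 1387 and 1474 with PBS and 1571 and 1920 with IL-4 in WT and the libraries labelled NIK KO (difference 0.20 ± 0.30). Stat6 stood at 4031 and 3709 with PBS and 4094 and 4663 with IL-4 (0.31 ± 0.30), and Jak1 differed by 0.21 ± 0.29. The feedback inhibitors Socs1 and Cish lay over 4: Socs1 had responses of 15.9-fold in WT and 14.8-fold in the libraries labelled NIK KO (-0.11 ± 0.57), and Cish of 12.96-fold and 16.2-fold (0.32 ± 0.81). Jak2 and the adaptor Irs2 lay in the bin 2 to 4, at 0.15 ± 0.35 and 0.46 ± 0.62. Of the 15 members analysed, 12 had the larger response in the libraries labelled NIK KO, with a median difference of 0.20 against 0.00 over all 9508 genes, none past an unadjusted p of 0.05. Their median transcript length was 4049 bases against 3458 over all genes, and with the trend on length described below subtracted the median was 0.15.

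CC chemokines lay on both sides of 0, and the errors of 9 members ranged from 0.30 (Ccl9) to 1.70 (Ccl24). Ccl9, the most abundant of them, went from 19640 to 28996 in WT and from 22732 to 25421 in the libraries labelled NIK KO (difference -0.40 ± 0.30). Ccl6 was at -0.25 ± 0.36, Ccl4 at -0.28 ± 0.57, Ccl5 at -0.14 ± 1.56 and Ccl3 at -0.06 ± 1.29. Ccl24, a chemoattractant for eosinophils, went from 6.199 to 111 in WT and from 3.81 to 150 in the libraries labelled NIK KO (difference 1.14 ± 1.70). Ccl7 differed by 0.16 ± 0.83 and Ccl22 by 0.42 ± 0.96. Ccl2 had responses of 2.03-fold in both genotypes, with an interval of -2.46 to 2.46 around a difference of 0.00, so this equality says little. Of 9 chemokines analysed 4 had the larger response in the libraries labelled NIK KO, the median difference was -0.06 and none was called (0 of 9). Their median transcript length was 1096 bases. With the trend on length described below subtracted, the sign turned: the median was 0.08, and 6 of 9 differences were positive.

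Among genes with a ratio of 2 to 4 the most abundant were measured closely. Igf1, the growth factor IGF-1, went from 6729 to 19758 in WT and from 6996 to 19705 in the libraries labelled NIK KO (difference -0.06 ± 0.33). Clic4, a chloride channel protein, was at -0.09 ± 0.28, the receptor chain gene Csf2rb at 0.06 ± 0.30, the aminopeptidase gene Anpep at -0.13 ± 0.30, the clathrin heavy chain gene Cltc at -0.14 ± 0.29 and Ap2m1, an adaptor of clathrin coats, at 0.34 ± 0.28. The smallest unadjusted p with a larger response in the libraries labelled NIK KO belonged to Trpm2, a calcium channel (0.94 ± 0.44), and Arl5b (0.92 ± 0.44). On the other side stood 2 genes known from the placenta. Tpbpa, of the trophoblast, stood at 74.9 in WT and 113 in the libraries labelled NIK KO with PBS and at 399 and 180 with IL-4 (difference -1.74 ± 0.56, adjusted p = 1.00 by the z test with Benjamini-Hochberg adjustment, and adjusted p = 0.0262 with the assumed correlation of 0.5). Prl3b1, a placental lactogen, stood at 54.0 and 49.8 with PBS and at 229 and 98.9 with IL-4 (-1.09 ± 0.75). As with the fibroblast markers, WT with IL-4 was the highest of the 4 groups for both. The summed level of 4 erythroid markers, all globin genes, was likewise 336 in WT with IL-4 and between 89.1 and 149 in the other groups, and their part in these results was not tested.

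Genes that stood lower with IL-4 included interferon-stimulated genes and inflammatory receptors. Cx3cr1, the fractalkine receptor, had the lowest ratio, from 3031 to 561 in WT and from 2843 to 434 in the libraries labelled NIK KO, or to 0.185 and 0.153 of the PBS level (difference -0.28 ± 0.39). Ifit3b went from 681 to 154 in WT and from 1213 to 202 in the libraries labelled NIK KO (-0.44 ± 0.47; other genes hold 55.2% of its words). Cxcl10 went from 1389 to 351 and from 1371 to 282 (-0.30 ± 0.96). Slfn4 was at -0.27 ± 1.12 and Fpr2, a formyl peptide receptor, at 0.28 ± 1.88. Cd14, the lipopolysaccharide co-receptor, went to 4521 from 17872 in WT and to 4017 from 15587 in the libraries labelled NIK KO (0.03 ± 0.73). Of the genes with the smallest p in this bin, Rpl15-ps3 (-0.88 ± 0.41) shares all its words with other genes. AC034099.1, with the smallest p on the other side (2.42 ± 1.82), shares 96.6% of them. It stood at 524 in WT and 115 in the libraries labelled NIK KO with PBS and at 118 and 139 with IL-4. Msrb1, a methionine sulfoxide reductase, was at -0.37 ± 0.30 and Slc25a37, a mitochondrial iron importer, at 0.41 ± 0.43. For 48 of 80 genes the difference was negative, that is, the drop was deeper in the libraries labelled NIK KO. Of the 11 genes of this bin with the interferon element in the promoter, 1 had a positive difference and the median was -0.21, against -0.01 over the 55 without it. Over 4, the 12 genes with the STAT6 motif had a median difference of 0.14 and the 64 without it 0.03. In the bin 2 to 4 the order was reversed, with -0.01 over 21 genes with the motif and 0.08 over 275 without. Over all genes analysed that have a promoter sequence, the medians were -0.01 with the STAT6 motif and 0.01 without. The sets with a motif in these bins are small, and none of this carries a test.

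Of the list of interferon-stimulated genes, 25 of 26 were analysed, 7 of them with a ratio under 0.5 and 18 between 0.5 and 2. Summed over all 26, mean normalized counts were 94794 in WT and 116708 in the libraries labelled NIK KO with PBS. With IL-4 they were 65269 and 75306. The median difference in response was -0.09, and 19 of 25 differences were negative, none past an unadjusted p of 0.05. Rsad2, the antiviral enzyme viperin, shows the form this took: 2157 in WT and 3741 in the libraries labelled NIK KO with PBS, 1018 and 1553 with IL-4 (difference -0.19 ± 0.38). Cmpk2 went from 2512 to 1137 and from 3957 to 1406 (-0.35 ± 0.37). The inflammatory list had 15 of 20 members analysed, 10 with a negative difference, and a median of -0.12. Il1b, the cytokine IL-1β, went from 388 to 111 in WT and from 395 to 105 in the libraries labelled NIK KO, and its error was wide (-0.10 ± 1.50).

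The 8 MHC class II presentation genes analysed, of 11 on the list, all had a negative difference, between -0.24 and -0.01, with a median of -0.12 and 0 past an unadjusted p of 0.05. Ciita, the transactivator of these genes, lay over 4 and went from 243 to 1016 in WT and from 403 to 1668 in the libraries labelled NIK KO (-0.01 ± 0.37). Cd74, the invariant chain, went from 5980 to 14177 and from 10227 to 20501 (-0.24 ± 0.38). Their median transcript length was 1540 bases, and subtraction of the length trend moved the median to -0.05. For polyamine and arginine metabolism, 9 of 10 genes analysed had the smaller response in the libraries labelled NIK KO (median -0.20). With the length trend subtracted the median of these genes was -0.18. Odc1, which makes putrescine, went from 548 to 981 in WT and from 789 to 1025 in the libraries labelled NIK KO (-0.46 ± 0.33). The exception was the arginine transporter gene Slc7a2, over 4, with 24.9-fold in WT and 26.7-fold in the libraries labelled NIK KO (0.10 ± 0.36). No list had a called member.

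The nuclear-encoded respiratory chain lay wholly between 0.5 and 2, with 38 of 38 genes analysed. Of these 29 had the smaller response in the libraries labelled NIK KO, with a median difference of -0.16, median responses of 0.36 in WT and 0.24 in the libraries labelled NIK KO, and 0 past an unadjusted p of 0.05. Cox5a, a cytochrome c oxidase subunit, went from 1276 to 1979 in WT and from 1571 to 1796 in the libraries labelled NIK KO (-0.44 ± 0.31), while Sdha, of complex II, had the largest positive difference (0.55 ± 0.39). These transcripts are short, with a median of 1483 bases, and with the length trend subtracted the median was -0.06. The noncanonical NF-κB list, to which NIK belongs, had 8 of 15 genes with the larger response in the libraries labelled NIK KO and a median of 0.06, and the canonical list 10 of 15 and 0.12. With the length trend subtracted the medians were 0.07 for the noncanonical and 0.05 for the canonical list. Nfkb2 differed by 0.38 ± 0.42 and Relb by 0.21 ± 0.44.

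The difference also followed transcript length. With genes split into 5 equal groups by length, the median difference was -0.09 in the shortest group (median 1456 bases) and 0.10 in the longest (6801 bases). The median log2 fold change in the authors' deposited table with PBS ran from -0.03 to 0.01 from the shortest to the longest group, and in the authors' deposited table with IL-4 from -0.11 to 0.14. In the bin 2 to 4 the same medians of the difference ran from -0.14 (48 genes) to 0.16 (105 genes), and over 4 from 0.07 (16 genes) to 0.08 (28 genes). With this trend subtracted, the median difference was 0.04 in the bin 2 to 4 and 0.02 over 4. Of the 51 genes with an unadjusted p under 0.05 and a larger response in the libraries labelled NIK KO, 31 were in the longest group and 1 in the shortest. Of the 19 with a smaller response, 6 were in the longest and 6 in the shortest group. The part of RNA quality or library preparation in this was not tested.

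**Figure D5:**
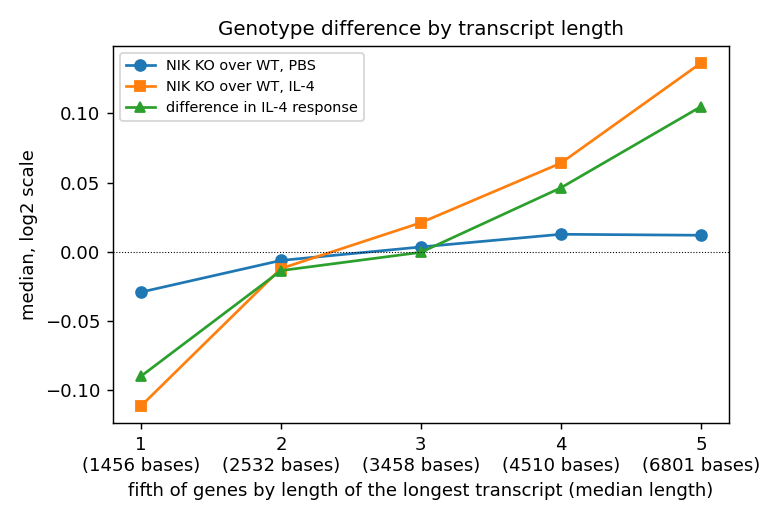
Medians over genes in 5 equal groups by transcript length (longest GENCODE M21 transcript per gene): log2 fold change NIK KO over WT with PBS, the same with IL-4, and the difference in IL-4 response. The difference climbs from -0.09 to 0.10, as does the fold change with IL-4, while the fold change with PBS stays between -0.03 and 0.01.

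The smallest unadjusted p-values of all lay between 0.5 and 2. Spen, a large transcriptional repressor, stood at 959 in WT and 651 in the libraries labelled NIK KO with PBS and at 854 and 1418 with IL-4 (difference 1.29 ± 0.37, adjusted p = 0.788 by the z test with Benjamini-Hochberg adjustment, and adjusted p = 0.00289 with the assumed correlation of 0.5). Tmem104, a membrane protein, stood at 1444 and 876 with PBS and at 1169 and 1773 with IL-4 (1.323 ± 0.416, adjusted p = 1.00 by that test, and adjusted p = 0.0290 with the assumed correlation). In both the order of the genotypes turned over between treatments. The longest transcript has 12299 bases for Spen and 4564 for Tmem104, against a median of 6801 in the longest group and 3458 over all genes. Gm45140 had the lowest adjusted p of the 9508 genes, 0.0693 by the z test with Benjamini-Hochberg adjustment, and an adjusted p of 2.17e-05 with the assumed correlation. It stood at 163 in WT and 293 in the libraries labelled NIK KO with PBS and at 387 and 153 with IL-4 (-2.19 ± 0.51), and 94.7% of its words occur in other genes. Gm10184, with 99.0% of its words in other genes, is listed near 0 in WT with PBS (0.172) and at 7.50 with IL-4, against 2525 and 2599 in the libraries labelled NIK KO, so its difference (adjusted p = 0.788 by the z test, and adjusted p = 0.0292 with the assumed correlation) cannot be read as a response.

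The minimum and the need for a value in both tables shaped the set. With IL-4, 5 genes at or above the minimum had no row in the PBS table: the chitinase-like gene Chil4, the ribonuclease gene Rnase2a, Msx3, B3gnt7 and Scn3a. In the authors' deposited table with IL-4 their log2 fold changes, NIK KO over WT, were -0.60 ± 0.37, -0.19 ± 0.34, 0.10 ± 0.23, 0.13 ± 0.30 and 1.26 ± 1.08, and none was called. Conversely, 118 genes at a base mean of 100 or more with PBS did not reach it with IL-4 or were not in that table, and 46 of them had a ratio under 0.5, so the bin of lowered genes is cut short by the rule. At the minimum itself, Rora (base mean 100.2) was included with a difference of 0.46 ± 0.65 and E130311K13Rik (99.96) was left out with -0.02 ± 0.69. Around the edge of 4 stood Rnf19b (ratio 4.05, difference 0.03) and Nes (3.93, -0.08), around 2 Zadh2 (2.002, -0.02) and Havcr2 (1.999, 0.02), and around 0.5 Acss2 (0.501, -0.03) and Nod1 (0.4996, -0.30).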

How the data were processed

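RNA of 8 libraries (4 groups of 2) was analysed from 2 tables, 1 per treatment, that compare the genotypes over 4 libraries each. Per the submitters' processing notes, Salmon 1.4.0, DESeq2 1.32.0 and genome build GRCm39 were used; the sources used here name no annotation or filter. Each table holds, per the file headers, a base mean made by the authors (a signal: counts divided by size factors, averaged over libraries), a log2 fold change with its standard error, a Wald statistic (a score), and the p-value and adjusted p-value. How the fold changes run (NIK KO over WT) was read from the IL-4 table's name and used for the PBS table too.

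Group means were recovered from base mean and fold change, as groups are of equal size. Tables were normalized separately: the median ratio IL-4 over PBS was 1.22, and no test across tables was made on levels. The difference of the 2 fold changes was tested with z, the root of the summed squared errors and a two-sided normal p, adjusted by Benjamini and Hochberg across 13384 genes and called at 0.05. Errors were treated as independent, yet both tables come from the same mice. Depth per library is unknown; the median standard error was 0.30 with PBS and 0.22 with IL-4. Transcript length and the percent of 31-base words shared with other genes came from GENCODE M21 (GRCm38) and were found for 9498 of 9508 genes; gene names are those in the files. The test was tried on simulated fold changes. Software was Python 3.11.15, matplotlib 3.10.9, statsmodels 0.14.6, scipy 1.17.1, pandas 2.3.3 and numpy 2.4.6. Genes named are those of highest and lowest ratio, highest level, smallest p per bin and direction, bin edges, and members of fixed lists; from other lists and for Gm10222, examples were chosen after their values were seen. Members and lists were chosen with earlier results of these data known. Alternatives covered the minimum, shared sequence, the binning, centring, the error model and transcript length.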

Additional observations from a re-analysis of the deposited data

Results flagged for a closer look

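Of the 13384 genes listed for both treatments, 2 had a difference in IL-4 response between genotypes that passed the adjusted test, and both lie below the base mean minimum of 100. Gm10146 stood at 51.7 mean normalized counts in WT and 77.7 in the libraries labelled NIK KO with PBS, and at 68.4 and near 0 (0.188) with IL-4 (adjusted p = 0.00149 by the z test with Benjamini-Hochberg adjustment). Pgam1-ps2, a pseudogene, stood at 530 in WT with PBS and 144 in the libraries labelled NIK KO with IL-4, and is listed near 0 in the other pair of groups (adjusted p = 0.00254 by the same test). All 31-base words of both (100%) occur in transcripts of other genes.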

How the results depend on the processing

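No paired analysis was possible because the tables hold 1 value per gene and comparison, not values per library, and for the same reason no library could be left out. An error correlation of 0.5 between tables, as shared mice could cause, stood in for pairing: it called 9 of the 9508 genes, 0 of them over 4 or under 0.5. They are Gm10184, Gm45140, Tpbpa, Spen, Tmem104, Tchp, Inpp1, Zc3h4 and Hook3, of which Tpbpa alone lies in the bin 2 to 4. A base mean minimum of 10 called 2 genes and put the share with the larger response in the libraries labelled NIK KO at 50.6% in the bin 2 to 4; the median difference over 4 was then -0.01. That share also depended on the binning: it was 48.6% with bins by the WT ratio, 75.9% by the ratio of the libraries labelled NIK KO and 54.4% with the ratio divided by its median. Under 0.5 it was 51.8% with bins by the WT ratio, and the median difference was -0.17 with bins by the ratio of the libraries labelled NIK KO. Centring the fold changes moved the share between 0.5 and 2 to 47.8% and turned the sign of Itgax (-0.0014) and Ccl2 (-0.013). The slope of the difference was -0.080 on the WT response and 0.188 on the response of the libraries labelled NIK KO. A minimum of 1000, a minimum in both tables, removal of genes with shared sequence, a t distribution with 4 degrees of freedom, adjustment over genes of base mean 10 or more, and subtraction of the length trend (added after seeing the data) each called 0 genes. In bin medians a move under 0.1 on the log2 scale, and in the slope one under 0.05, was taken as no move. Precision limits the genes near 0 with PBS most.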

Other observations

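Macrophage identity genes had a positive difference for 10 of 13 markers, with a median difference of 0.07 and 0 called. Summed over the 13, counts went from 668207 to 541450 in WT and from 679874 to 518697 in the libraries labelled NIK KO. Most of each sum was Lyz2. Csf1r, the M-CSF receptor gene, went from 44354 to 56268 in WT and from 46196 to 67641 in the libraries labelled NIK KO (difference 0.21 ± 0.27), and Lyz2, lysozyme, from 513620 to 370074 and from 521159 to 318214 (-0.24 ± 0.27). The mitosis list had 26 of 26 genes between 0.5 and 2, with a median difference of 0.03 and 16 positive differences. With the length trend subtracted the median of these mitosis genes was -0.005, and 12 differences were positive. LXR targets and lipid handling genes had a median difference of -0.04 over 15 genes, 7 of them with a positive difference. Neutrophil markers summed to 971 in WT and 680 in the libraries labelled NIK KO with PBS and to 1015 and 835 with IL-4, dendritic cell markers to between 74.2 and 129, and osteoclast markers to between 915 and 1162. Summed levels over the 4 groups were between 7.11 and 38.7 for B cell markers and 8.03 and 16.9 for T and NK cell markers, each from 1 gene. They were between 25.9 and 50.2 for markers of mast cells, basophils and eosinophils, highest in the libraries labelled NIK KO with IL-4. WT with IL-4 was the highest group for the neutrophil, dendritic cell, osteoclast, B cell and T and NK cell markers. The same held for the fibroblast and erythroid markers above. The part of these cell types in the results was not tested.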
